A study of Mus musculus with 4 samples.

Results

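The Reg genes encode small secreted C-type lectins of the gut and pancreas. The family was taken as Reg1, Reg2, Reg3a, Reg3b, Reg3d, Reg3g and Reg4. It was defined by gene name, with earlier results of these data known. Every probe whose RefSeq identifier maps to these genes was used. Each of the 7 genes had 1 such probe with 1 spot. These are 7 of the 55681 probes on the array, of which 27350 had no gene symbol. Of the 7 genes, 6 were measured well above background and entered the test, among 24865 genes tested. Reg2 did not, since its spot was not well above background on any of the 4 arrays.

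Reg3b and Reg3g are bactericidal lectins of the small intestine that bind cell wall components of bacteria and help keep them away from the epithelial surface. Their transcription in mouse gut is known to be driven by interleukin-22 acting through its epithelial receptor and STAT3, and by MyD88 signalling, and Paneth cells and enterocytes are known sources. Reg1 and Reg2 were first known from regenerating pancreatic islets and acinar tissue. Reg4 is the most divergent member, lies apart from the others in the genome, and marks secretory cells of the gut, among them enteroendocrine and deep crypt secretory cells. Ifnar1 encodes a subunit of the receptor for type I interferons, through which cells switch on interferon-stimulated genes.

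The samples were 2 libraries of Lgr5-high intestinal cells from Ifnar1-/- mice and, as controls, 2 libraries of the same cells from mice with intact Ifnar1. Mice of both genotypes carried the Lgr5-EGFP-Ires-CreERT2 knock-in, which reports Lgr5, the marker of crypt base stem cells, and all were given poly(I:C), an artificial double-stranded RNA that triggers type I interferon production, at 2 mg/kg into the peritoneum each day for 1 week. No mice without poly(I:C) were analysed here, so the comparison concerns the receptor and not the treatment. Stem cells were sorted by flow cytometry, and their RNA was amplified before labelling, so each array reports a bulk sorted population after amplification. The labels do not say whether the 2 libraries of a group came from separate animals, and p-values then measure only the spread between these libraries, which may be technical.

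Levels are log2 processed signals relative to each array's 75th percentile, and differences are Ifnar1-/- minus control. Libraries with the same replicate number shared a slide, so each slide held 1 Ifnar1-/- and 1 control array and gives a difference of its own. The share of spots well above background was 63.3% to 67.7% per array, and no spot was saturated. Ifnar1 itself had levels of -1.76 and -2.28 in the Ifnar1-/- libraries and of -0.21 and -0.37 in the controls, a difference of -1.73, and where its probe lies relative to the deleted part is unknown. The sorted cells had Lgr5 signal well above background in both groups, with levels of 3.32 and 2.93 in Ifnar1-/- libraries and of 3.04 and 2.82 in controls, while Olfm4, another stem cell marker, had no named probe.

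Promoter sequences are shown for 4 members, since the family members differed in how far apart the genotypes were and since several of the genes lie side by side. They run from 250 bases before to 50 bases after the RefSeq start, in assembly GRCm38.p6, 5′ to 3′ on the gene's strand. Reg3b (chr6:78370635-78370934, plus strand) and Reg3g (chr6:78468825-78469124, minus strand) are the 2 bactericidal members. Reg3d (chr6:78378816-78379115, minus strand) is the neighbour of Reg3b whose level, near background, did not separate the genotypes. Reg4 (chr3:98221906-98222205, plus strand) is the member outside the cluster. Capitals mark matches to the motifs TTCNNNGAA and TATAAA on either strand and, in Reg3b and Reg3g, the longest stretch that their promoters share.
Reg3b: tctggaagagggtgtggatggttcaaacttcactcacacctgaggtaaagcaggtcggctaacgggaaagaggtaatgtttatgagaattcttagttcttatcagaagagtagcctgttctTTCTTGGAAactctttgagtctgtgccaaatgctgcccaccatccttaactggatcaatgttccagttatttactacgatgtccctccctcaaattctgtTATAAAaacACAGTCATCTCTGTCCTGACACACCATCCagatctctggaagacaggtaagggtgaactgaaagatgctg
Reg3g: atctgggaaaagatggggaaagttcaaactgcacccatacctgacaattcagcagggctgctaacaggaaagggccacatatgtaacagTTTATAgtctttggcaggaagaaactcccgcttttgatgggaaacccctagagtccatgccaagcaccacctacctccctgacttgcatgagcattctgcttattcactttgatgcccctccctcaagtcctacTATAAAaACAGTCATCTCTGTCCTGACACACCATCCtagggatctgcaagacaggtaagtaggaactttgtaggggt
Reg3d: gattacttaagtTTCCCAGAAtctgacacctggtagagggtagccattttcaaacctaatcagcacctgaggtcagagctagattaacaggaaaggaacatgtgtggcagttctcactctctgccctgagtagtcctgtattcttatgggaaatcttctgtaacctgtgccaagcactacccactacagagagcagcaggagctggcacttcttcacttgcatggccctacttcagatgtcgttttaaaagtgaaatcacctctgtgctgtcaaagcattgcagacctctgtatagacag
Reg4: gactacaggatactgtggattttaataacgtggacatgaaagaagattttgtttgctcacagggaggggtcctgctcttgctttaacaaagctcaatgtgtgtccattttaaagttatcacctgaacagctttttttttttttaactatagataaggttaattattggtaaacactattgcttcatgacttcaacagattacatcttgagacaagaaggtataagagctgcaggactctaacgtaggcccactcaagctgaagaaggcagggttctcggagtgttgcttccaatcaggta

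The Reg3b and Reg3g promoters were the most alike of the family, with 69.0% identity over their alignment and 1 unbroken shared run of 29 bases beginning 20 bases before the start in both genes. That run occurs in 2 of 32851 mouse promoters of the same length, those of Reg3b and Reg3g. The other 14 pairs within the chromosome 6 cluster had 49.9% to 58.5% identity and no shared run longer than 14 bases, and the Reg4 promoter had 49.1% to 51.0% identity to the others. The letters TTCNNNGAA, the pattern that STAT proteins bind, occurred in the windows of Reg3b, as TTCTTGGAA starting 129 bases before the start, and of Reg3d, as TTCCCAGAA starting 238 bases before it. The same letters occur in 8.30% of all promoters. The core of the interferon-stimulated response element, searched as GAAANNGAA, was in none of the 7 windows and is in 8.56% of all promoters. TATAAA, the TATA box, was found on either strand in the windows of Reg1, Reg2, Reg3b and Reg3g, and is in 13.6% of all promoters. In those 4 genes a match on the gene's own strand began 30, 30, 29 and 27 bases before the start. These matches are descriptions of the letters in the windows.

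Among the Reg genes, 5 of the 6 tested were lower in both Ifnar1-/- libraries than in both controls, where 11.5% of all genes tested showed that order. Reg4, Reg3b and Reg3g had differences of -2.68, -2.49 and -2.37, Reg3a of -1.82 and Reg1 of -1.05, while Reg3d had a difference of -0.01. The median difference of the 6 members was -2.09, against 0.02 over all genes, and it was -2.55 on slide 1 and -1.49 on slide 2. More than 2-fold lower signal on both slides was found for 4 members and for 0.873% of all genes. With limma on 2 arrays a group, 0 of the 6 members passed an adjusted p of 0.05 without a slide term, and the share of all genes called lower was 0%. In that fit 5 of the 6 had an unadjusted p under 0.05, as had 427 lower and 258 higher genes in all, and the smallest adjusted p of any gene was 0.224. With the slide as a block, which leaves 1 residual degree of freedom, 2 members were called lower, Reg3b and Reg4, where 0.33% of all genes were. The calls with the block rest on limma's intensity trend in the variance, without which 0 genes were called, the smallest adjusted p was 0.444, and 1025 lower and 1036 higher genes had an unadjusted p under 0.05.

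**Figure D1:**
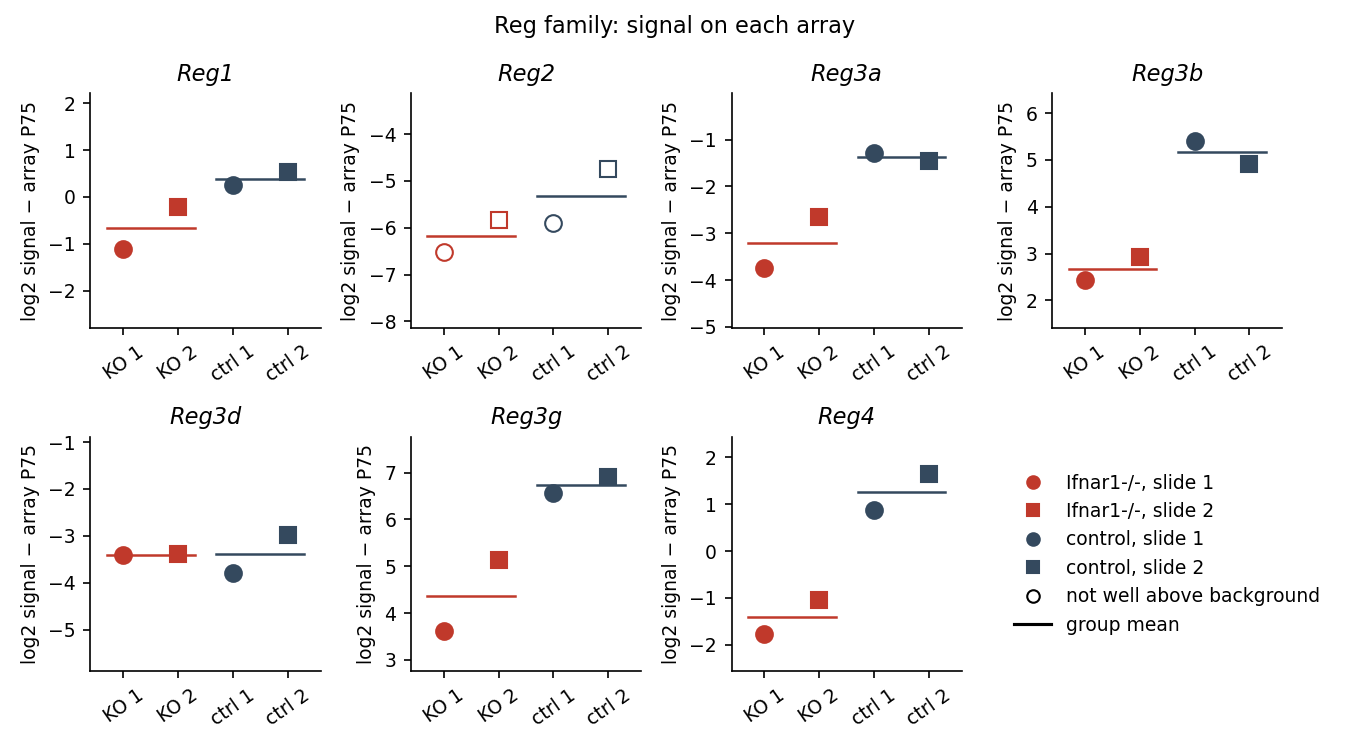
Level of each Reg gene on each array, as log2 signal minus the array's 75th percentile (P75), with Ifnar1-/- (KO) libraries in red and control libraries in dark blue. Circles are slide 1, squares slide 2, lines group means (n = 2), and open symbols arrays on which the spot was not well above background. Each panel spans the same number of log2 units, and levels are not comparable between panels. The groups are apart in Reg1, Reg3a, Reg3b, Reg3g and Reg4, and overlap in Reg3d.

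Reg3b, one of the bactericidal lectins, had levels of 2.43 and 2.93 in Ifnar1-/- libraries, against 5.41 and 4.92 in controls. The processed signals behind them were 1264 and 1925 in Ifnar1-/- libraries and 10321 and 7489 in controls. Both Ifnar1-/- libraries were lower than both controls, and the nearest arrays of the groups were 2.00 log2 units apart. The means were 2.68 ± 0.35 in Ifnar1-/- and 5.17 ± 0.34 in controls (SD, n = 2 each), which is 5.61-fold lower, with 7.89-fold on slide 1 and 3.99-fold on slide 2. The limma test gave an adjusted p of 0.237 for Reg3b without the slide term (difference -2.49, SE 0.27) and of 0.0298 with it. Only 57 of the 24865 genes had a lower difference.

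Reg3g, the closest relative of Reg3b in this cluster by promoter sequence, had levels of 3.61 and 5.13 in Ifnar1-/- libraries, against 6.56 and 6.91 in controls. Both Ifnar1-/- libraries were again lower, but they lay 1.52 apart from each other, with the higher one on slide 2. The signals were 2864 and 8843 in Ifnar1-/- libraries and 22923 and 29668 in controls. The means were 4.37 ± 1.07 and 6.73 ± 0.25 in Ifnar1-/- and control libraries (SD, n = 2 each), a 5.16-fold lower signal, with 7.74-fold on slide 1 and 3.45-fold on slide 2. Reg3g did not pass the limma test, with an adjusted p of 0.692 without the slide term (SE 0.50) and of 0.0518 with it, at the edge of the threshold. Leaving out the second Ifnar1-/- library moved the difference to -3.13 for Reg3g, -2.74 for Reg3b and -3.04 for Reg4. Leaving out the first instead moved it to -1.61 for Reg3g, -2.24 for Reg3b and -2.32 for Reg4. The Reg3g difference was -2.54 without the first control library and -2.19 without the second.

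Reg3a, another lectin of the same subgroup, was measured at low signal, 17.6 and 40.0 in Ifnar1-/- libraries and 99.1 and 89.3 in controls. Its levels were -3.74 and -2.66 in Ifnar1-/- libraries, against -1.29 and -1.47 in controls, and the groups did not overlap. The difference of -1.82 (SE 0.44) was -2.45 on slide 1 and -1.20 on slide 2, with an adjusted p in limma of 0.949 without the slide term and of 0.194 with it. With normexp background correction in place of the scanner's own, the Reg3a difference was -0.75. The lowest signals that the arrays called well above background were 9.96 to 12.3, near the lower of the Ifnar1-/- signals of Reg3a.

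Reg3d, a further member of the cluster, did not separate the genotypes. It had levels of -3.41 and -3.39 in Ifnar1-/- libraries, against -3.79 and -2.99 in controls, so that both Ifnar1-/- libraries lay between the 2 controls. The difference was 0.38 on slide 1 and -0.40 on slide 2. The difference of the group means, -0.01, has an SE of 0.44, which does not show that the level was alike in both genotypes. Signals of Reg3d were 22.1 and 24.2 in Ifnar1-/- libraries and 17.6 and 31.0 in controls. The lowest signals called well above background were 9.96 to 12.3, so a large drop could hardly have been measured.

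Reg1, known from pancreatic regeneration, had levels of -1.11 and -0.21 in Ifnar1-/- libraries, against 0.25 and 0.53 in controls. The groups did not overlap, and their nearest arrays were 0.46 apart. Signals were 109 and 219 in Ifnar1-/- libraries and 288 and 355 in controls. The signal was 2.06-fold lower (difference -1.05, SE 0.35), with -1.36 on slide 1 and -0.74 on slide 2, and limma gave an adjusted p of 0.172 with the slide term. Reg2, its close relative, had signals of 2.57 and 4.45 in Ifnar1-/- libraries and of 4.10 and 9.14 in controls, all not well above background, and no fold is given.

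Reg4, the secretory cell member on chromosome 3, had the lowest difference of the family. Its levels were -1.78 and -1.05 in Ifnar1-/- libraries, against 0.88 and 1.65 in controls, and its signals were 68.4 and 122 in Ifnar1-/- libraries, against 447 and 774 in controls. Both Ifnar1-/- libraries were lower, and in each group the slide 2 array was the higher one. The means were -1.42 ± 0.51 in Ifnar1-/- and 1.26 ± 0.54 in controls (SD, n = 2 each). The signal was 6.42-fold lower between the group means, 6.32-fold on slide 1 and 6.51-fold on slide 2. The limma test gave Reg4 an adjusted p of 0.325 without the slide term (difference -2.68, SE 0.38) and of 0.00787 with it. A lower difference was found for 46 of all genes.

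**Figure D2:**
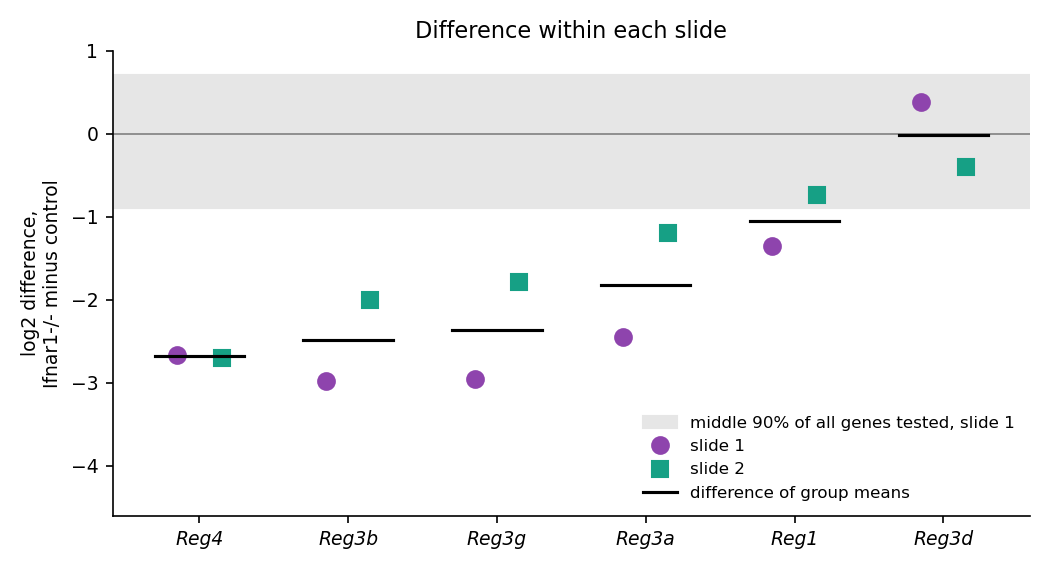
Difference in log2 level, Ifnar1-/- minus control, for the 6 tested Reg genes on slide 1 (circles) and slide 2 (squares), with the difference of the group means as a bar. The grey band covers the middle 90% of differences of all genes tested on slide 1, from -0.89 to 0.71. On slide 2 that range was -0.60 to 0.58. Reg4 was alike on both slides (-2.66 and -2.70), Reg3b, Reg3g, Reg3a and Reg1 had lower differences on slide 1 than on slide 2, and Reg3d changed sign between slides.

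The cluster genes lie on chromosome 6 in the order Reg3b, Reg3d, Reg3a, Reg2, Reg1 and Reg3g in the RefSeq annotation. Members with differences of -2.49 and -1.82, Reg3b and Reg3a, thus flank Reg3d, with its difference of -0.01 at a signal near background. On the outer side of Reg3b, the lncRNA gene 6330415B21Rik was the nearest gene with a tested probe among the 4 annotated there, and its difference was 0.23 (adjusted p = 0.660 with the slide term, limma). Around Reg4 on chromosome 3, Adam30 had a difference of -0.55 and Phgdh, an enzyme of serine synthesis, of 0.12.

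The members also differed in which genes their profiles resembled, measured as the Euclidean distance between log2 levels over the 4 arrays, each gene centred on its own mean, among 13862 named genes well above background on all arrays. The profile of Reg3b was higher on the slide 1 control than on the slide 2 control. Its nearest genes were Parp14 (distance 0.125), an ADP-ribosyltransferase, Bst2 (0.188), the antiviral tetherin, Oas1g (0.372), an oligoadenylate synthetase, Pla2g2f (0.381), a secreted phospholipase, and Ifit2 (0.392), an interferon-induced protein. Bst2 had levels of -1.16 and -0.83 in Ifnar1-/- libraries and of 1.60 and 1.32 in controls. The nearest genes to Reg4 were Lyz2 (0.212), a lysozyme, Ang2 (0.299) and Ang4 (0.355), angiogenins, Pnliprp2 (0.365), a lipase, and Clps (0.413), colipase. The nearest to Reg3g were Defa36 (0.452), an alpha-defensin, Mmp7 (0.471), the protease that activates alpha-defensins in mouse, Pnliprp2 (0.484), Lyz1 (0.518) and Lyz2 (0.540). The nearest to Reg3a were the alpha-defensin genes Defa26 (0.221), Defa29 (0.272) and Defa42 (0.284), then Mmp7 (0.298) and the defensin pseudogene Defa-ps1 (0.330). Gsn (0.0571), the actin-severing protein gelsolin, Gadd45g (0.122), a stress response gene, H2-K1 (0.146), a class I MHC gene, Hgfac (0.220) and B3gnt5 (0.225) were nearest to Reg1. Zfp316, Gm40590, Vps13c, Ttc3 and Apol7c were nearest to Reg3d, at distances from 0.0280 to 0.0628. With 4 arrays these distances describe a shape over 4 points and have no test.

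**Figure D3:**
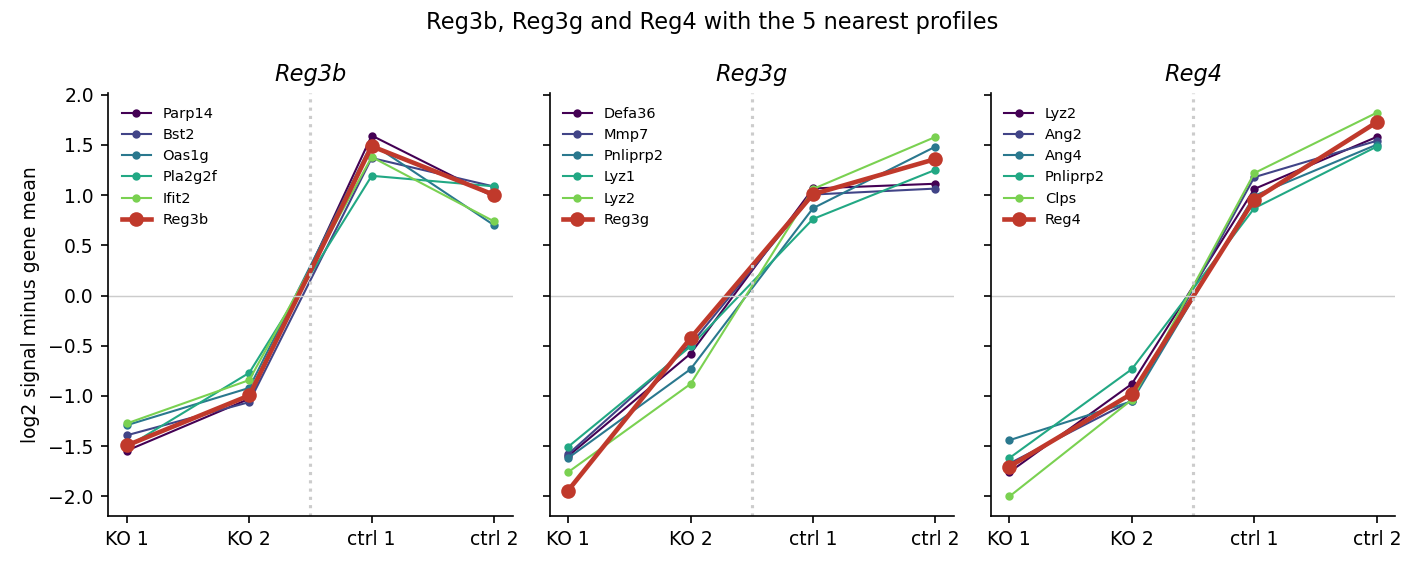
Levels of Reg3b, Reg3g and Reg4 (thick red) and of the 5 genes with the nearest profile to each, as log2 signal minus the gene's mean over the 4 arrays, with Ifnar1-/- (KO) arrays left of the dotted line and control (ctrl) arrays right of it. Reg3b and its neighbours are higher on control 1 than on control 2, Pla2g2f by the least, while Reg3g and Reg4 and their neighbours are higher on control 2.

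Genes that mark Paneth cells, the antimicrobial secretory cells beside the stem cells, were lower in the same libraries as the Reg genes. Of 15 listed Paneth genes 11 had a tested probe. All 11 of 11 were lower in both Ifnar1-/- libraries than in both controls, where 11.5% of all genes tested were. With the slide term 7 were called lower, where 0.33% of all genes were, and 0 without it. The 11 Paneth genes had a median difference of -1.79, with -2.20 on slide 1 and -1.55 on slide 2. Their summed level was 137 and 231 times the 75th percentile in Ifnar1-/- libraries, against 535 and 655 times in controls. Ang4 had a difference of -2.50, Lyz1, the Paneth lysozyme, of -2.01, Itln1, intelectin, of -1.63, Defa3, an alpha-defensin, of -1.64 and Clps of -3.04, with adjusted p values of 0.00504, 0.0131, 0.00665, 0.00787 and 0.00504 in limma with the slide term. In these bulk samples fewer cells of a type and less RNA per cell cannot be told apart, and the part of Paneth cell RNA in the Reg differences was not tested.

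Set against the mean level of the 11 Paneth genes on the same array, the difference of Reg4 was -0.64 on slide 1 and -1.10 on slide 2, that of Reg3b -0.96 and -0.39, and that of Reg3g -0.93 and -0.18. Relative to the same mean, the difference was 0.67 and 0.87 for Reg1 and 2.40 and 1.21 for Reg3d. For each of these the groups did not overlap. With 2 against 2 arrays that order alone fixes the exact permutation test at p = 0.333 (two-sided), the smallest possible. The test thus adds nothing to the order. Without the subtraction Reg1 had differences of -1.36 and -0.74 and Reg3d of 0.38 and -0.40 on slides 1 and 2. Their positive relative values on both slides thus come from the lower Paneth mean in Ifnar1-/- libraries. Reg3a relative to that mean was -0.42 on slide 1 and 0.41 on slide 2, with overlapping groups.

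Markers of other cell types were closer to the median of all genes. Goblet cell genes had a median difference of -0.37. It was -0.89 for slide 1 alone, -0.12 for slide 2 alone, -0.09 without the first and -0.86 without the second Ifnar1-/- library. Of 11 tested, 5 were lower without overlap, where 11.5% of all genes tested were, 1 was higher, where 14.5% were, and 0 were called. The summed level of the goblet genes was 121 and 172 in Ifnar1-/- libraries, against 162 and 167 in controls. Spink4 had a difference of -1.55 (adjusted p = 0.0815 with the slide term, limma) and Muc2, the main intestinal mucin, of -0.88. Of 12 tested enteroendocrine genes 5 were lower without overlap, 1 higher and 0 called. Their median was -0.49, and it was -0.27 without the first and -0.86 without the second Ifnar1-/- library and -0.95 without the first control library, and the summed level was 14.8 and 19.2 in Ifnar1-/- libraries, against 19.1 and 26.0 in controls. Chgb had a difference of -0.81 and Chga, chromogranin A, of -0.89. Enterocyte genes had a median of 0.37, which was 0.24 without the second control library. Of 12 tested, 8 were higher without overlap, where 14.5% of all genes tested were, 1 was lower and 0 were called, with a summed level of 76.9 and 83.9 in Ifnar1-/- libraries, against 56.9 and 66.3 in controls. The 8 include a gene tested because of its Ifnar1-/- arrays, since its spot was well above background on only 1 control array. That gene had levels of -4.05 and -4.18 in Ifnar1-/- libraries, against -4.19 and -5.36 in controls. Fabp2, an intestinal fatty acid binding protein, had a difference of 0.49. Stem cell genes had a median of 0.09, with 5 of 11 higher and 0 lower without overlap. Pancreatic acinar genes, listed since Reg1 and Reg2 are made in the pancreas, were not well above background in either group for 9 of 14, and the summed level of the other 5 was 1.62 and 1.93 in Ifnar1-/- libraries, against 1.60 and 1.91 in controls. Immune genes had a median of 0.01. With the slide term 1 of 9, Lyz2, was called lower (difference -2.64, adjusted p = 0.00828, limma), where 0.33% of all genes were. The part of these cell types in the Reg differences was not tested.

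**Figure D4:**
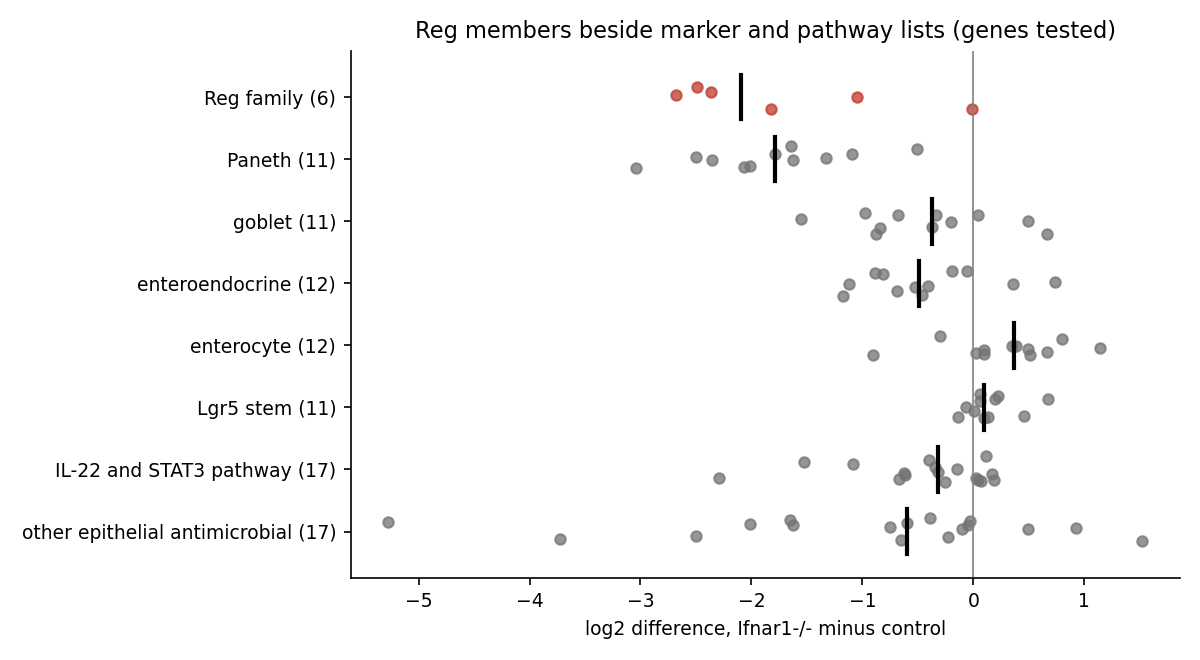
Difference in log2 level, Ifnar1-/- minus control, of each tested gene in the Reg family (red) and in 7 marker and pathway lists (grey), with the number of genes in brackets and the list's median as a black bar. The Reg median (-2.09) and the Paneth median (-1.79) lie below those of the other lists, which range from -0.60 to 0.37. Vertical spread within a list is only for display, and some genes stand in more than 1 list. Some points include spots not well above background. Among them are Fut2 and Il10rb, the lowest points of the interleukin-22 and STAT3 list, whose positions are not measured folds.

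Receptors, signalling genes and targets linked to the control of Reg3 lectins in the gut were listed as the interleukin-22 and STAT3 pathway. The list thus does not hold regulators alone. Of its 20 genes 17 were tested, and 0 were called with or without the slide term. Without overlap 4 were lower and 0 higher, where 11.5% and 14.5% of all genes tested were. Among the 4 lower genes, Il10rb and Fut2 were tested because of their control arrays, since their spots were not well above background on both Ifnar1-/- arrays. The median difference of the 17 was -0.32, with -0.44 on slide 1 and -0.20 on slide 2, and -0.12 without the first Ifnar1-/- library. Where only genes well above background on all 4 arrays were kept, the list's median was -0.26. Of the 17, 10 were lower on both slides, Il10rb and Fut2 among them, and 4 were higher on both. Stat3, the transcription factor itself, had levels of 2.64 and 3.41 in Ifnar1-/- libraries, against 3.40 and 3.89 in controls, so the groups overlapped. Within slides Stat3 was lower on both, by -0.76 on slide 1 and -0.48 on slide 2 (difference -0.62, adjusted p = 0.132 with the slide term, limma). Socs3, a feedback inhibitor induced by STAT3, had levels of -0.31 and -1.74 in Ifnar1-/- libraries, against 0.49 and -0.36 in controls, and these overlapped too. Within slides Socs3 was also lower on both, by -0.79 on slide 1 and -1.38 on slide 2 (difference -1.09, adjusted p = 0.164, limma with the slide term). Il22ra1, the interleukin-22 receptor subunit of epithelium, had a difference of -0.73 on slide 1 and 0.82 on slide 2. Bcl3, a nuclear regulator of NF-kB, had a difference of -0.67, and Fut2, a fucosyltransferase induced by interleukin-22 in mouse gut, had -0.25 on slide 2. On slide 1 the Fut2 spot of the Ifnar1-/- array was not well above background, and no difference is given. Il10rb, the shared receptor subunit, was well above background on both control arrays and on 0 of 2 Ifnar1-/- arrays, and no fold is given.

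Among other antimicrobial genes of the epithelium, 17 of 26 were tested. Without overlap 9 were lower and 3 higher, where 11.5% and 14.5% of all genes tested were. With the slide term 4 were called lower, where 0.33% of all genes were, and 0 without it. The 4 were Ang4, Itln1, Lyz1 and Mptx1, a mucosal pentraxin with a difference of -3.72 (adjusted p = 0.00897, limma with the slide term), and 3 of them also stand in the Paneth list. The list's median was -0.60. Lectins outside the Reg family had a median of 0.21, which was -0.24 without the second control library, -0.07 without the first Ifnar1-/- library and 0.05 without the second. In that list 3 of 9 tested genes were lower and 3 higher without overlap, and 1 was called lower with the slide term, Itln1.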

How the data were processed

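Sorted Lgr5-high cells of 2 groups with 2 libraries each were amplified, labelled with Cy3 and hybridised to 1-colour Agilent mouse arrays, per the labels' protocols. The deposited scanner files hold processed spot intensity on a linear scale made by Agilent Feature Extraction. The file headers give its version as 12.0.3.1 and the submitters' processing notes as 11.5.1.1. The authors' deposited table holds the same intensity multiplied by 1 constant per array (5.60 to 6.68), with column medians of 239 and 223 in Ifnar1-/- and 249 and 231 in control libraries. It was neither log-transformed nor centred by gene, and the target of its scaling is unknown.

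Control spots and outlier spots (111 to 172 per array) were left out, log2 values of a probe's spots were averaged, and the 75th percentile of the array was subtracted. Of 55681 probes, 28331 had a gene symbol through the RefSeq table and 27350 had none and were tested under their own identifiers. Probes (35422) were kept where 1 group or both had well-above-background spots on its 2 arrays, and the brightest kept probe stood for a gene. Tests used limma 3.58.1 in R 4.3.3 (lmFit, eBayes with an intensity trend), with Benjamini-Hochberg adjustment over 24865 genes and a threshold of 0.05. The script was tested on simulated data. Promoters came from RefSeq (GRCm38.p6), where 7 members matched, and were aligned with Biopython 1.88.

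Same-numbered libraries shared a slide per the file headers, and their deviations from the group means correlated at 0.56 across genes, so fits with the slide as a block stand beside the others. A scan or slide effect is thus separable from genotype, and the precision is limited by 4 arrays.

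The family, the gene lists and the rules were chosen with earlier results of these data known. Genes named are the Reg members, Ifnar1, up to 4 genes per list by smallest p with the block, 8 preset genes (Lgr5, Lyz1, Muc2, Chga, Stat3, Il22ra1, Socs3 and Fut2) and the 5 nearest profiles per tested member. Some genes that the rule allows are not described. Genes beside the Reg loci were named by position. Alternatives concerned scaling, background correction, filters, probe choice, the variance trend, the block and each left-out library.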

Additional observations from a re-analysis of the deposited data

How the results depend on the processing

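The Reg median ran from -2.55 to -1.40 over 19 alternatives and stayed below 0. Without the slide term, 0 genes, Reg members or list genes were called, and with the replicate block 90, 2 and 9 were. Leaving out 1 library at a time gave 9 to 91 genes, 0 to 3 members and 0 to 9 list genes. The members called were Reg3b, Reg3g and Reg4 without Ifnar1-/- library 2, Reg4 without control library 1, Reg3b without control library 2, and none without Ifnar1-/- library 1 (Reg3b adjusted p = 0.0813, limma). In those fits a lone library is assumed to vary like the other group. The block cannot be combined with a left-out library, since no residual degrees of freedom remain. With the block, the genes called numbered 0 without the intensity trend, 266 with median scaling, 145 with quantile normalization, 342 with normexp, 155 with the authors' table, 766 with no filter on dim probes, 136 with every probe tested or probes averaged, and 205 at an adjusted p of 0.1. The Reg members called with the block numbered 0 without the trend and 5 with normexp or no filter. List genes numbered 0 without the trend, 21 with median scaling, 25 with normexp, 35 with no filter and 17 at an adjusted p of 0.1. Over 13 alternatives with the block, Reg3b and Reg4 were called in 12 and missed without the trend, and Reg3g was called in 11 and missed without the trend and when all 4 arrays had to be above background. Its adjusted p in limma ran from 6.92e-08 to 0.496. Combinations of the block with another choice, other than the planned one without the intensity trend, were chosen after seeing the data, as were the percentile over probes and linear averaging. The pancreatic acinar median (-0.06) was 0.040 with normexp, and -0.12 to 0.53 without 1 library. The median of lectins outside the family (0.21) ran from -0.24 to 0.16 without 1 library. The causes of these shifts were not tested. Low signal limits Reg3a and Reg3d, whose spots were near background, and 2 arrays a group limit every p.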
